A study of Mus musculus with 8 samples.

Results

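The genes described here are 10 members of the CC chemokine system, 8 ligands (Ccl2, Ccl3, Ccl4, Ccl5, Ccl7, Ccl8, Ccl11 and Ccl20) and 2 receptors (Ccr1 and Ccr2), of 22180 genes tested. Each was taken by its symbol, from a probe set annotated with that symbol alone, and each had 1 such probe set, so all 10 were measured. RNA came from the middle colon of 8 female mice, 9 weeks old and kept specific-pathogen-free, of the strain labelled C57BL/6-Trim58tm2313Arte. 4 were Trim58-/- mice (KO), which lack the ubiquitin ligase gene Trim58 in every cell, and 4 were Trim58+/+ mice (WT). Both genotypes drank 4% dextran sulfate sodium (DSS), a sulfated sugar polymer that damages the colonic lining, for 7 days and then plain water for 5 days. Colons were taken on day 12, and an untreated group was not analysed here. Each mouse gave 1 array, so n = 4 mice per genotype. Values are RMA signals on the log2 scale, where a step of 1 is a doubling, and signals of different genes are not compared with each other.

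CC chemokines are small secreted proteins with neighbouring cysteines near the amino end, and they attract leukocytes through G protein-coupled receptors. Ccr2 and its ligands Ccl2 and Ccl7 bring inflammatory monocytes from the bone marrow into the injured colon, where these cells become macrophages. Ccr1, which binds Ccl3 and Ccl5 among others, is carried by monocytes and neutrophils. Ccl11 attracts eosinophils through Ccr3, and Ccl20, made mainly by gut epithelium, attracts cells with Ccr6.

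7 of the 10 genes lie on chromosome 11 (coordinates of GRCm38.p6, from the RefSeq gene annotation). Ccl2 (chr11:82035577-82037452), Ccl7 (chr11:82045712-82047525), Ccl11 (chr11:82057832-82062955) and Ccl8 (chr11:82115185-82116799) form one group of neighbours. Ccl5 (chr11:83525778-83530518), Ccl3 (chr11:83647843-83649378) and Ccl4 (chr11:83648624-83664683) form another. The annotated spans of Ccl3 and Ccl4 overlap, and whether their probe sets share signal was not tested. Ccr1 (chr9:123962126-123968692) and Ccr2 (chr9:124101918-124109140) lie near each other on chromosome 9, and Ccl20 (chr1:83116766-83119167) lies on chromosome 1.

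RefSeq promoters (build GRCm38.p6) were at hand for 5 of the 10 genes. The 250 bases before the transcript start are shown for the receptor that passed the test (Ccr1), the ligand with the greatest difference (Ccl3), a ligand of the other chromosome 11 group (Ccl8) and the ligand with the smallest difference (Ccl20). Capitals mark matches to the NF-kB consensus, the binding motif of a transcription factor that switches on many chemokine genes, or to TATAAA, each searched on both strands.
Ccr1: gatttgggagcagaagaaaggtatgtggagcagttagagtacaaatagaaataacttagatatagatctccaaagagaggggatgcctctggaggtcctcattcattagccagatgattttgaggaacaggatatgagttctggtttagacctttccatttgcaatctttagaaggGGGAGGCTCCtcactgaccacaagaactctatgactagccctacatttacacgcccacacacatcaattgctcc
Ccl3: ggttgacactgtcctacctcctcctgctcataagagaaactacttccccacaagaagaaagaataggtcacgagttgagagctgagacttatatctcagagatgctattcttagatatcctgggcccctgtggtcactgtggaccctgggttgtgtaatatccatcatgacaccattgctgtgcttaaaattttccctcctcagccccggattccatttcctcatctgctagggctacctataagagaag
Ccl8: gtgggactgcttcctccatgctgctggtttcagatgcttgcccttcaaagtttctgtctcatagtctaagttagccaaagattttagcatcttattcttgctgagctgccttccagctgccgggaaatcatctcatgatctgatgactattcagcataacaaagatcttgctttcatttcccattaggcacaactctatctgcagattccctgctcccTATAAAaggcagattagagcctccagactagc
Ccl20: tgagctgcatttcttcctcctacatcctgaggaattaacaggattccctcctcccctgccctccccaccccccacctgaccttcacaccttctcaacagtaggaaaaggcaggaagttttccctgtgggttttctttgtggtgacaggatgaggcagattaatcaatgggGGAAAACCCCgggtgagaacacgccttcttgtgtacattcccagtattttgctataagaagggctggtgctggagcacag
The windows are chr9:123968693-123968942 (minus strand), chr11:83649379-83649628 (minus strand), chr11:82114935-82115184 (plus strand) and chr1:83116516-83116765 (plus strand), in the order printed. The NF-kB consensus matched in Ccr1, at positions -74 to -65 from the start, and in Ccl20, at -80 to -71. It matched in 7.25% of all 32851 promoters of the same length. TATAAA matched in Ccl8, at -32 to -27, and in 12.4% of all promoters. The activator protein 1 motif TGANTCA matched in 0 of the 5 promoters and in 6.75% of all. No match overlapped another. These matches describe letters only.

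Trim58 itself read 4.91, 5.37, 4.82 and 5.11 in KO replicates 1 to 4, against 5.22, 5.07, 5.18 and 5.03 in WT replicates (log2). Its difference of -0.07 ± 0.12 (SE) did not pass (limma adjusted p = 0.839), so this probe set does not check the labels. Medians of the 8 arrays lay between 5.73 and 5.83, and the number of arrays limits the precision. One feature sets libraries apart. Acinar pancreas genes averaged 10.40, 11.21 and 10.96 in KO replicates 1, 2 and 4, 5.94 in KO replicate 3 and 6.02 to 6.16 in the WT arrays (log2, 15 genes). Results are therefore also given for KO replicate 3 alone.

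The comparison of KO with WT asks how the loss of Trim58 alters expression in the colitic colon. For most of the 10 genes the KO colons held the highest values, the receptor gene Ccr1 passed the test over all genes, and the genotypes overlapped for Ccl20. All 10 log2 differences were above 0, as were those of 46.1% of all genes, and their median was 0.85, against -0.01 over all genes. After Benjamini-Hochberg adjustment over all genes 1 of the 10 was called higher, Ccr1, where 0.392% of all genes were, and 0 were called lower, where 0.185% were. At an unadjusted limma p under 0.05 8 of 10 were higher, where 6.22% of all genes were, and 0 lower, where 8.1% were. In 6 of 10 every KO value lay above every WT value (Ccl2, Ccl4, Ccl7, Ccl11, Ccr1 and Ccr2), where 3.79% of all genes did so, and in 0 of 10 every KO value lay below, where 5.02% did so. These genes were chosen with earlier results of the same arrays known, so the counts describe them and are not a test of the group.

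**Figure D1:**
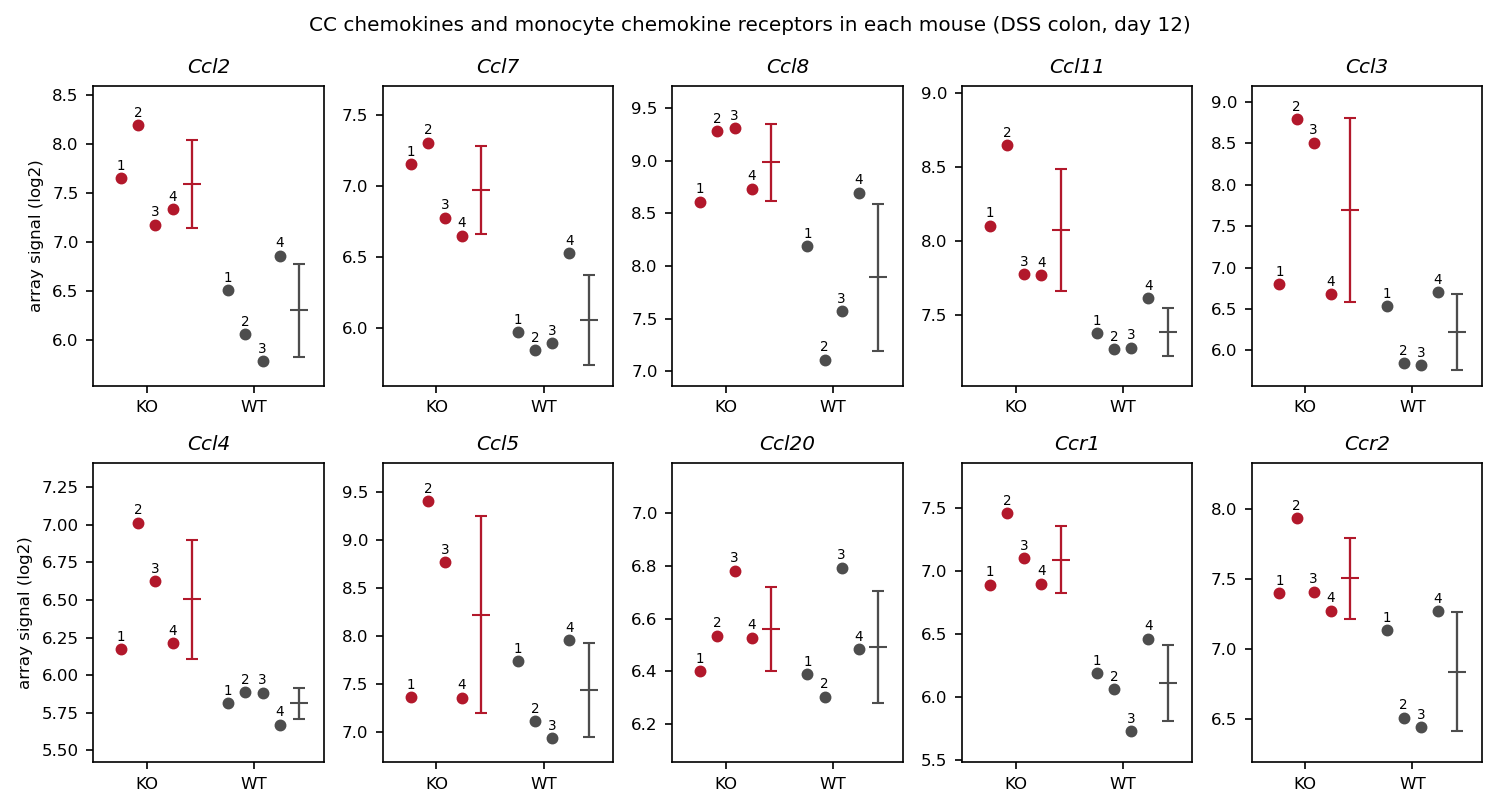
Array signal (log2, vertical axes differ between panels) of each gene in each mouse, KO left of WT; numbers are replicates, and bars give the mean and SD of 4 mice. KO points lie above all WT points in 6 panels, Ccl3 and Ccl5 split the KO mice into a high and a low pair, and Ccl20 shows overlapping genotypes.

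The receptors are described first. Ccr1 read 6.89, 7.46, 7.10 and 6.90 in KO replicates 1 to 4, against 6.19, 6.06, 5.73 and 6.46 in WT replicates 1 to 4 (log2). The lowest KO mouse was 0.43 above the highest WT mouse, and the 4 KO values kept close together. The mean was 7.09 ± 0.27 in KO and 6.11 ± 0.30 in WT (SD, n = 4 each), a difference of 0.98 ± 0.17 (SE) or 1.97-fold, with a 95% interval of 1.52 to 2.55-fold (limma adjusted p = 0.0358). Ccr1 ranked 95 among the 22180 genes by p. In bulk tissue, more cells that carry a transcript and more transcript per cell cannot be told apart. The call was lost without any 1 of 6 arrays. The adjusted p was 0.0668, 0.0947 and 0.0536 without KO replicates 1, 2 and 4 and 0.0583, 0.141 and 0.0615 without WT replicates 1, 2 and 3. The call held at 0.0479 without KO replicate 3 and at 0.0443 without WT replicate 4. The size moved little, between 0.85 and 1.09 on the log2 scale in these 8 fits, and KO replicate 3 alone lay 0.99 above the WT mean.

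Ccr2, the receptor that lets monocytes leave the marrow, read 7.40, 7.93, 7.41 and 7.27 in KO colons, against 7.14, 6.51, 6.44 and 7.27 in WT colons (log2). KO replicate 4 stood only 0.0052 above WT replicate 4, so the groups touch. The mean was 7.50 ± 0.29 in KO and 6.84 ± 0.42 in WT (SD, n = 4 each), a difference of 0.67 ± 0.21 (SE) that missed the adjusted threshold (limma adjusted p = 0.171). WT replicates 1 and 4 lay close to the 3 lower KO mice, while WT replicates 2 and 3 lay well below. 

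Among the ligands of Ccr2, Ccl2 read 7.66, 8.20, 7.18 and 7.34 in KO colons, against 6.51, 6.06, 5.78 and 6.86 in WT colons (log2). Every KO mouse exceeded every WT mouse, with a gap of 0.32 between the nearest. The difference of 1.29 ± 0.26 (SE) is 2.44-fold with a 95% interval of 1.64 to 3.64-fold, and it missed the threshold (limma adjusted p = 0.0625). Ccl2 passed without KO replicate 3, at 1.43 (limma adjusted p = 0.0416). That fit leaves only the KO mice with pancreatic signal, and KO replicate 3 alone lay 0.87 above the WT mean. Without any other single array Ccl2 missed, with a limma adjusted p between 0.0683 and 0.210.

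Ccl7, a close relative of Ccl2 that also signals through Ccr2, read 7.15, 7.30, 6.78 and 6.65 in KO colons, against 5.97, 5.84, 5.89 and 6.53 in WT colons (log2). WT replicate 4 stood apart from the other WT mice and came within 0.12 of the lowest KO mouse. The difference was 0.91 ± 0.18 (SE), 1.88-fold (limma adjusted p = 0.0617), and it passed without WT replicate 4, at 1.07 (limma adjusted p = 0.0443). Without any other single array it missed, with a limma adjusted p between 0.0565 and 0.204. For both Ccl2 and Ccl7 the exact two-sided permutation p was 0.0286, the smallest that 4 mice against 4 can give, and so it was for Ccl4, Ccl11, Ccr1 and Ccr2.

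Ccl8, which in the mouse is known as a ligand of Ccr8 and is made by tissue macrophages, read 8.61, 9.28, 9.31 and 8.73 in KO colons, against 8.19, 7.11, 7.57 and 8.70 in WT colons (log2). The WT mice spread over 1.58 and the KO mice over 0.70, and WT replicate 4 lay above KO replicate 1. The difference was 1.09 ± 0.31 (SE), 2.13-fold, and did not pass (limma adjusted p = 0.138).

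Ccl11, eotaxin, the eosinophil attractant made largely by stromal cells and macrophages, read 8.10, 8.65, 7.78 and 7.77 in KO colons, against 7.38, 7.27, 7.28 and 7.62 in WT colons (log2). The groups did not overlap, but KO replicate 4 lay only 0.15 above WT replicate 4, and KO replicate 3 hardly more. The difference was 0.69 ± 0.18 (SE), 1.61-fold (limma adjusted p = 0.120). It was 0.50 without KO replicate 2, the highest mouse.

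Ccl3, also called MIP-1 alpha, a product of activated macrophages and neutrophils, had the greatest difference of the 10 and the greatest range among KO mice. It read 6.80, 8.79, 8.51 and 6.68 in KO colons, against 6.53, 5.85, 5.82 and 6.70 in WT colons (log2). KO replicates 2 and 3 lay far above the other KO mice, whose values were near those of WT replicates 1 and 4. The difference was 1.47 ± 0.46 (SE), 2.78-fold with a 95% interval of 1.36 to 5.68-fold (limma adjusted p = 0.173; exact permutation p = 0.0571).

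Ccl4, MIP-1 beta, is encoded beside Ccl3. It read 6.17, 7.01, 6.62 and 6.21 in KO colons, against 5.81, 5.89, 5.88 and 5.67 in WT colons (log2). The WT mice lay within 0.22 of each other and below all KO mice. KO replicates 2 and 3 were again the higher pair. The difference was 0.69 ± 0.17 (SE), 1.62-fold (limma adjusted p = 0.100).

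Ccl5, RANTES, which T and natural killer cells as well as macrophages make, split in the same way. It read 7.36, 9.40, 8.76 and 7.36 in KO colons, against 7.73, 7.11, 6.93 and 7.95 in WT colons (log2). KO replicates 1 and 4 lay inside the WT range and KO replicates 2 and 3 above it. The difference was 0.79 ± 0.44 (SE), 1.73-fold with a 95% interval of 0.875 to 3.41-fold (limma adjusted p = 0.465; exact permutation p = 0.257). It was 0.39 on the log2 scale without KO replicate 2.

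Ccl20 read 6.40, 6.54, 6.78 and 6.53 in KO colons, against 6.39, 6.30, 6.79 and 6.48 in WT colons (log2). The genotypes overlapped throughout, and replicate 3 was the highest mouse in both. The difference was 0.07 ± 0.12 (SE), with a 95% interval of 0.871 to 1.26-fold (limma adjusted p = 0.852).

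**Figure D2:**
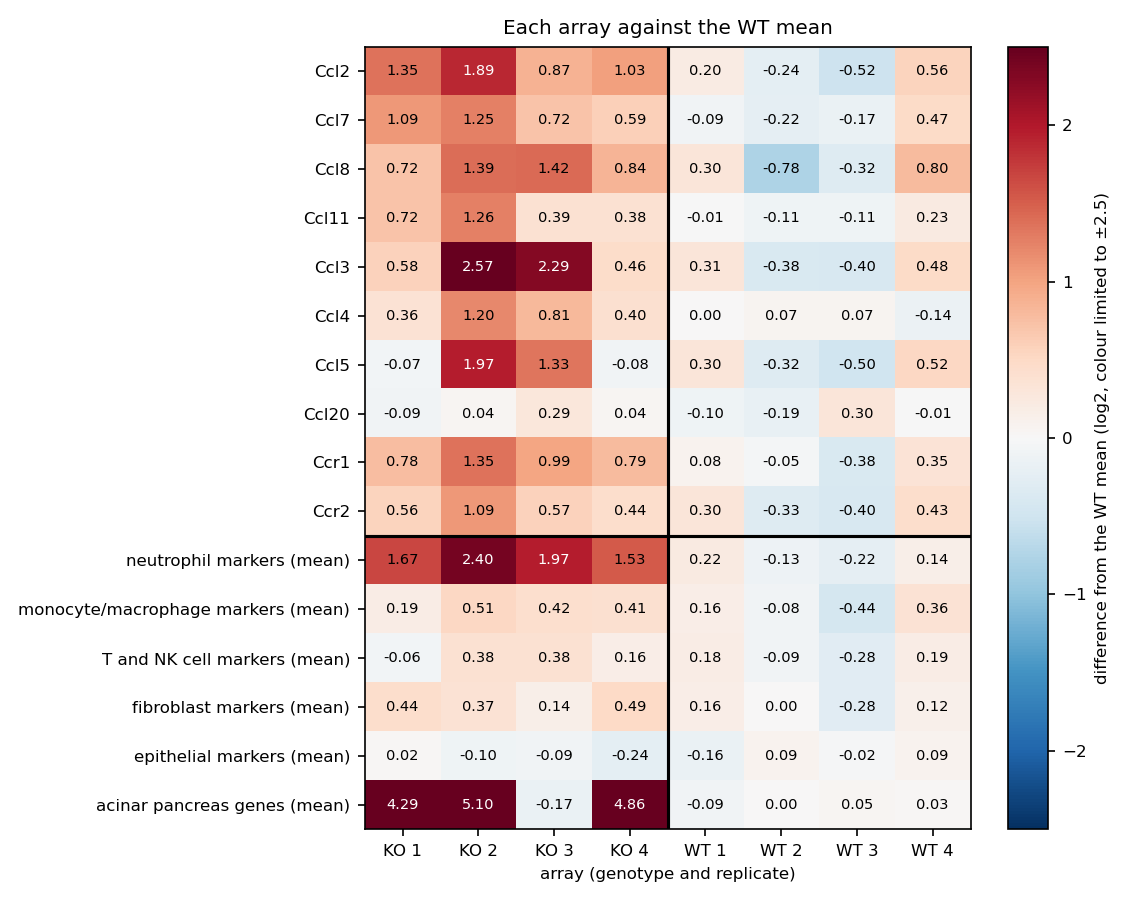
Difference of each array from the WT mean (log2; red above, blue below) for the 10 genes and, under the line, for the mean of marker lists; columns are KO and WT replicates. KO replicate 2 is the highest KO mouse for 8 of the 10 genes, Ccl3 and Ccl5 are strongest in KO replicates 2 and 3, and acinar pancreas genes are high in KO replicates 1, 2 and 4 but not in KO replicate 3.

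The mice within a genotype also had an order that many of the 10 genes shared. KO replicate 2 was the highest KO mouse for 8 of the 10 genes, and KO replicate 3 for the other 2. Both KO replicates 2 and 3 lay above both KO replicates 1 and 4 for 7 of the 10 genes, an order found in 17.6% of all genes. In the WT group replicates 1 and 4 lay above both replicates 2 and 3 for 8 of the 10, an order found in 16.5% of all genes. These orders were noticed in the values and are given without a test. The median of the 10 genes' shifts from the WT mean was 0.65, 1.31, 0.84 and 0.45 in KO replicates 1 to 4, against 0.14, -0.23, -0.35 and 0.45 in WT replicates 1 to 4. KO replicate 4 thus stood no further from the WT mean than WT replicate 4 by this median. The number of genes above the highest WT mouse was 7, 9, 9 and 7 in KO replicates 1 to 4. The share of all genes that do so in a single KO mouse was not computed, so these counts have no background.

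KO replicate 3, the KO mouse without pancreatic signal, exceeded every WT mouse for each of the 10 genes but Ccl20, again without a share over all genes. With it alone against the 4 WT mice the median difference was 0.84, close to the 0.85 with all arrays, and 0 of the 10 genes passed in that fit of a single KO mouse. Single genes moved more than the median. For KO replicate 3 alone Ccl11 and Ccl2 were at 0.39 and 0.87 and Ccl3, Ccl5 and Ccl20 at 2.29, 1.33 and 0.29, against 0.69, 1.29, 1.47, 0.79 and 0.07 with all arrays. With the pancreatic mean as a covariate the median was 0.81 and again 0 passed. That mean was high in KO replicates 1, 2 and 4 alone. The covariate fit therefore rests largely on KO replicate 3 and is no separate check. In that fit Ccl11 and Ccl2 were at 0.38 and 0.88 and Ccl3, Ccl5 and Ccl20 at 2.11, 1.17 and 0.26, while Ccr1 was at 0.95.

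Of the other CC ligands 11 were measured, and 0 passed the test in either direction, with a median difference of -0.06. Ccl9, which binds Ccr1, read 9.89, 9.93, 9.56 and 9.46 in KO colons, against 8.79, 8.34, 8.84 and 9.36 in WT colons (log2). No KO value fell below a WT value, and the difference was 0.88 ± 0.19 (SE; limma adjusted p = 0.0811). Its neighbour on chromosome 11, Ccl6, was on the other side. It read 9.72, 9.91, 10.20 and 9.91 in KO colons, against 10.22, 10.35, 10.47 and 10.57 in WT colons (log2). All KO values lay below all WT values, with a difference of -0.47 ± 0.12 (SE; limma adjusted p = 0.103). Ccl12, a mouse ligand of Ccr2 encoded between Ccl11 and Ccl8, had a difference of 0.48 ± 0.15 (SE; limma adjusted p = 0.169), with no overlap.

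Of the other CC and atypical receptors 11 were measured, and 0 passed in either direction, with a median difference of 0.06. Ccr6, the receptor of Ccl20, read 6.31, 6.83, 6.79 and 6.56 in KO colons, against 6.37, 6.09, 5.65 and 5.82 in WT colons (log2). Only KO replicate 1 fell below a WT mouse, and the difference of 0.64 ± 0.17 (SE) did not pass (limma adjusted p = 0.115). The ligand Ccl20 and its receptor thus had differences of 0.07 and 0.64, and whether these differ from each other was not tested. Ccr3, the receptor of Ccl11, had a difference of 0.11 (limma adjusted p = 0.834), and Ackr1, the endothelial carrier of chemokines, of 0.02 (limma adjusted p = 0.977). Ackr4, a scavenger of homeostatic CC chemokines, was at -0.39, and Ccr10, the receptor of Ccl28, at -0.41 (limma adjusted p = 0.278 and 0.349).

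**Figure D3:**
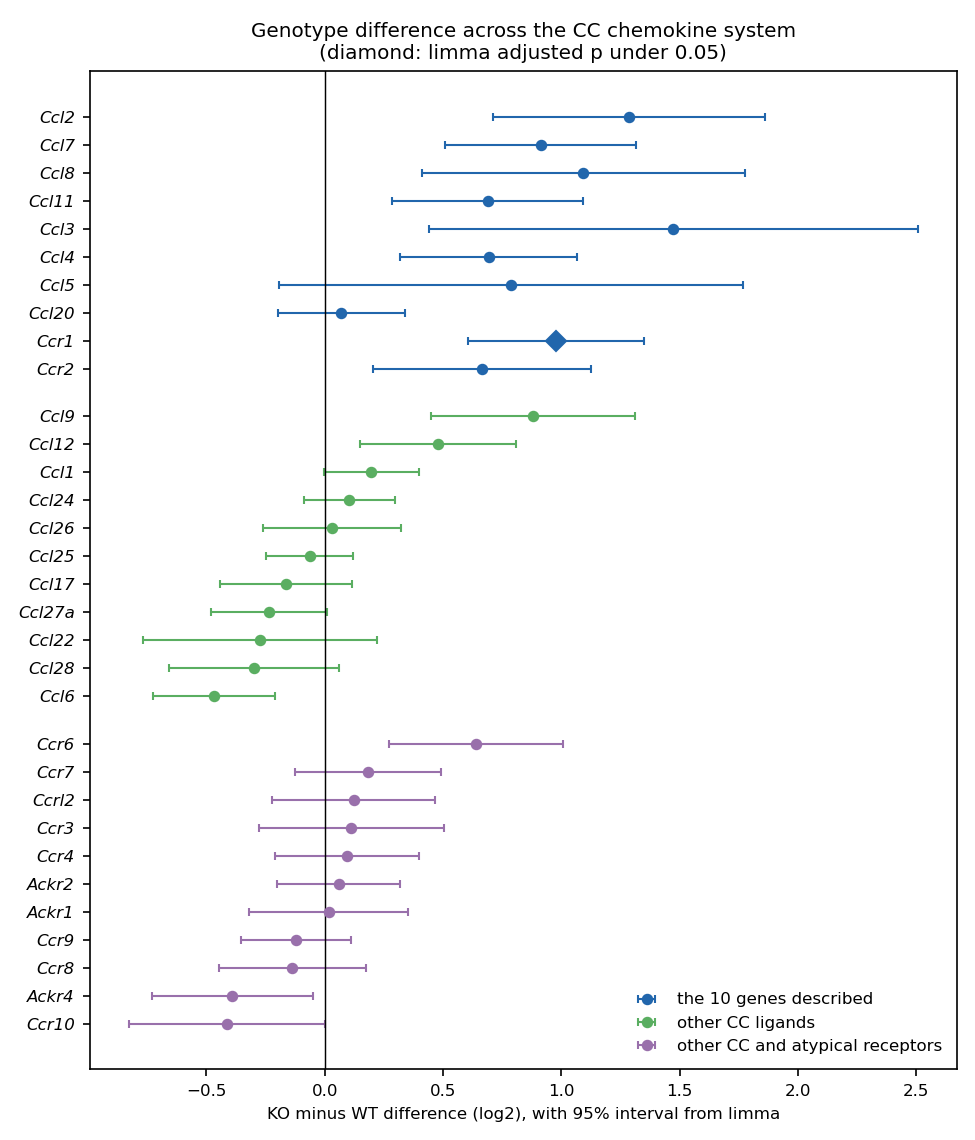
KO minus WT difference (log2, horizontal axis) with its 95% interval from limma for the 10 genes, 11 other CC ligands and 11 other CC or atypical receptors; a diamond marks an adjusted p under 0.05. The 10 genes span 0.07 to 1.47, Ccr1 carries the one diamond, and the other lists lie on both sides of 0.

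Genes known to induce CC chemokines, or to restrain that induction, included 3 that passed. Of 18 measured, 3 rose and 0 fell, with a median of 0.14. The cytokine genes Il1b, Il1a and Il6 were 10.4-fold, 5.17-fold and 3.48-fold higher in KO (limma adjusted p = 0.00424, 0.0125 and 0.0230). Il1b read 10.42, 11.73, 11.60 and 10.57 in KO colons, against 8.06, 7.47, 7.07 and 8.21 in WT colons (log2). KO replicates 2 and 3 were the high KO pair and WT replicates 1 and 4 the high WT pair, as for Ccl3. Of 17 genes that act downstream of chemokine receptors, 0 passed, with a median of 0.20. Dock2 and Rac2, which drive leukocyte migration, had differences of 0.71 and 0.73 (limma adjusted p = 0.123 and 0.210), and Gnai3, a G protein subunit, of 0.18 (limma adjusted p = 0.241).

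Markers of the cells that carry or make these proteins moved with genotype to different degrees, and their part in the chemokine differences was not tested. Of 18 neutrophil markers 15 rose and 0 fell, with a median difference of 1.85. Their mean lay between 6.88 and 7.75 in KO colons and between 5.13 and 5.56 in WT colons (log2). S100a8 and S100a9, the calprotectin subunits, were 9.20-fold and 8.64-fold higher and the cystatin-like gene Stfa2l1 7.19-fold higher (limma adjusted p = 0.000802, 0.000233 and 0.000269). Ccr1, Ccl3 and Ccl4 are genes that neutrophils can express. Of 19 monocyte and macrophage markers 2 rose and 0 fell, with a median of 0.30 and list means of 8.58 to 8.91 in KO colons and 7.95 to 8.76 in WT colons. The 2 were Chil3, at 6.34-fold, and the integrin gene Itgam, at 2.14-fold (limma adjusted p = 0.00424 and 0.0310), which neutrophils or their precursors express as well. Fcgr1, the high-affinity IgG receptor, had a difference of 0.70 (limma adjusted p = 0.175). Of the 19 differences 14 were above 0. Those below 0 were Cx3cr1 at -0.26, Mertk at -0.11, Ms4a7 at -0.09, Plac8 at -0.02 and Ly6c2 at -0.0009.

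Of 15 T and natural killer cell markers 0 passed, with a median of 0.08. Their mean was 5.59, 6.03, 6.03 and 5.82 in KO replicates 1 to 4, against 5.83, 5.57, 5.38 and 5.84 in WT replicates, so that KO replicates 2 and 3 were highest here as for Ccl5. The granzyme genes Gzma and Gzmb had differences of 1.17 and 1.09 (limma adjusted p = 0.0613 and 0.0638), and Eomes of 0.23. Of 9 type 17 and innate lymphoid markers 0 passed (median 0.18), with Il1r1 at 0.77 and Il22 at 0.18. Of 13 eosinophil and mast cell markers 0 passed (median 0.08), beside the 0.69 of Ccl11. Il5ra was at 0.73, Kit at -0.34 and the eosinophil peroxidase gene Epx at 0.09 (limma adjusted p = 0.139, 0.161 and 0.643).

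Of 12 fibroblast markers 1 rose, the collagen gene Col1a2 at 1.56-fold (limma adjusted p = 0.0396), with Col1a1 and Col3a1 at 0.68 and 0.58 and a list median of 0.34. Of 9 B cell and follicle markers 1 rose, the complement receptor gene Cr2 at 2.96-fold (limma adjusted p = 0.0440), with Ms4a1 at 1.44, Bank1 at 1.33 and a median of 0.93. None of 14 epithelial markers passed (median -0.10), where Slc26a3 was at -0.62, Krt18 at -0.24 and Cdx1 at -0.18. Their mean lay between 10.83 and 11.08 in KO colons and between 10.91 and 11.15 in WT colons, so the labelled tissue carried its epithelial markers in every array. Of 10 smooth muscle genes and 9 posterior Hox genes 0 passed, with medians of -0.35 and -0.20. Des, Actg2 and Synm were at -0.45, -0.62 and -0.52, and Hoxb13, Hoxd11 and Hoxd12 at -0.91, -0.38 and -0.26. The 15 acinar pancreas genes had a median of 4.26 with 0 calls, Ctrl at 4.68, Try4 at 4.35 and Ctrc at 1.01.

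Genes outside the 10 were compared with each of the 10 over the 8 arrays. Olfactory receptors and predicted genes (Gm, LOC and Rik symbols) were left out. The gene whose log2 values ran most nearly parallel to Ccl7 was Cxcl1, a neutrophil chemokine (Pearson r = 0.9928), and Ccl9 came next (0.9702). Nearest to Ccr1 were Dock11 (0.9906) and the neutrophil and macrophage lectin gene Clec4d (0.9895), and to Ccr2 Sh3bp2 (0.9904) and Nfam1 (0.9869). Gusb (0.9869) and Ifi204 (0.9852) were nearest to Ccl2, Clec4n (0.9849) and Slpi (0.9779) to Ccl8, and Dynll1 (0.9836) and Nsmce1 (0.9740) to Ccl11. The suppressor of cytokine signalling gene Socs3 (0.9849) and the leukocyte gene Hcls1 (0.9804) were nearest to Ccl3, and Cd300lf (0.9829) and Mrgpra2a (0.9767) to Ccl4. Scimp (0.9900) and Socs1 (0.9804) were nearest to Ccl5, and Chadl (0.9764) and Dbhos (0.9612) to Ccl20. These are the closest of the genes searched over 8 arrays in 2 genotypes, so values near 1 arise for many profiles. They are given as a description, and the 10 genes were not compared with each other in this way.

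**Figure D4:**
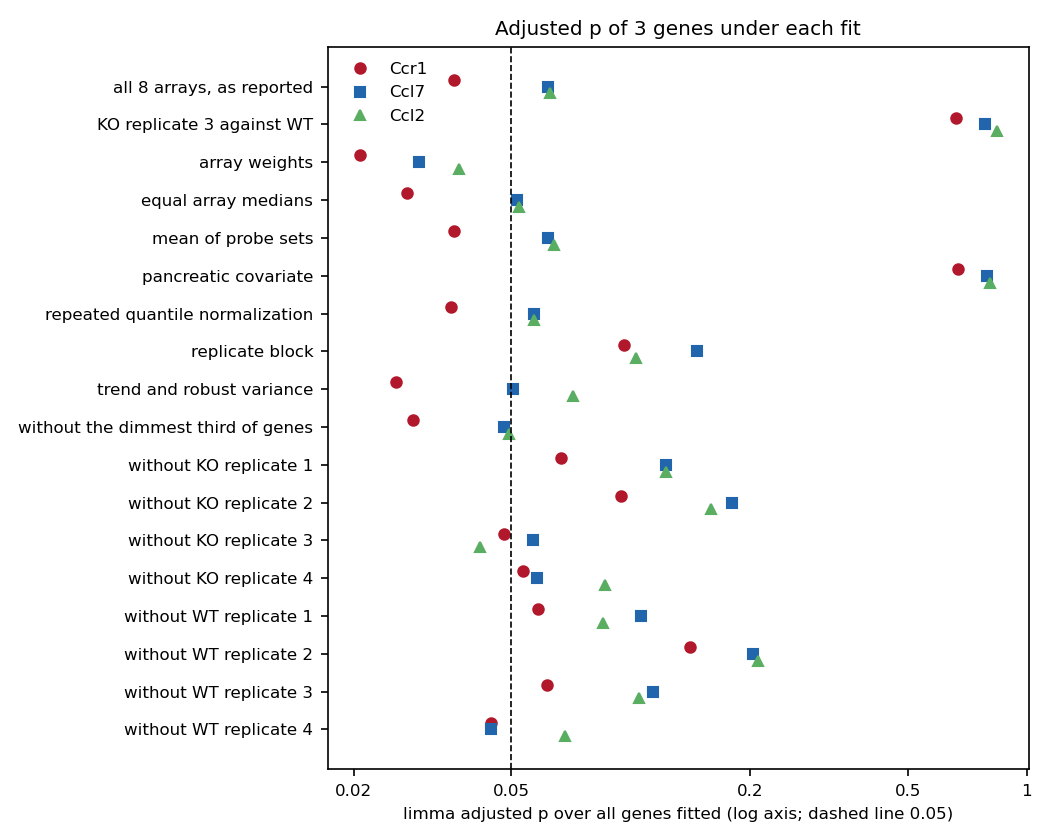
Limma adjusted p (log axis; dashed line at 0.05) of Ccr1, Ccl7 and Ccl2 with all 8 arrays and under each of 17 alternative fits. With all arrays Ccr1 lies left of the line at 0.0358 and Ccl7 and Ccl2 just right of it at 0.0617 and 0.0625, and 6 of the 8 fits without 1 array put all 3 right of it.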

How the data were processed

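RNA from the middle colon of 8 mice was labelled with biotin and measured on 1 Affymetrix array each. The authors deposited log2 values made by RMA in Affymetrix Expression Console 1.4, per the submitters' processing notes. RMA corrects background, equalises array distributions and summarises probe sets, and it understates folds of dim genes. The sources used here give no genome build or scan batch. Of 41345 probe sets, 23521 carried 1 gene symbol, 1814 several and 16010 none in the platform annotation. Symbols were updated by Entrez identifier (23328 found, GRCm38.p6), and the probe set with the highest mean was kept, leaving 22180 genes.

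The genotype difference was fitted by limma 3.58.1 (R 4.3.3; lmFit, then eBayes, without covariates), Benjamini-Hochberg adjusted over all 22180 genes, with a threshold of 0.05. Adjusted p-values come from that fit or, where an alternative is named, from the same model refitted under it. Exact two-sided permutation tests used the 70 assignments of 4 of 8 arrays. In simulated KO against WT data with 22180 genes, 64% of 50 genes with a log2 change of 0.5 were recovered. With a change of 1, 100% of 50 were recovered, and there were 8 false calls. In the real arrays Ccl2, Ccl8 and Ccl3 differed by 1.29, 1.09 and 1.47 (log2; SE 0.26, 0.31 and 0.46) and were not called. The simulated shares are therefore not detection rates for these genes. 17 alternatives were tried. Replicate numbers were not treated as pairs in the main fit. Same-numbered deviations from the group means correlated at -0.142, -0.160, 0.0422 and 0.0517, a check that cannot exclude every kind of pairing.

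Members, lists and rules were chosen with earlier results of these data known. Named were Trim58, all members, 3 genes with the smallest p from each of 15 lists, fixed relatives, and 2 genes nearest each member. 1 CC receptor outside the 10 members was not analysed here, nor were Ccl19 and Ccl21a, whose probe sets carry several symbols. Promoters are RefSeq's.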

Additional observations from a re-analysis of the deposited data

Results flagged for a closer look

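The highest and lowest mouse of each genotype were compared with the rest of their group for 57 named genes, in 114 groups of 4. Chance marks about 1 group in 20. Ccl12 stood out in KO replicate 3, at 5.88 against 5.39 to 5.46 in the other KO mice (log2), where the gap was 0.842 of the range. The acinar pancreas genes Ctrl and Try4 stood out in the same mouse in the other direction, with gaps of 0.850 and 0.843 of the range. Ctrl read 6.93 there against 11.98 to 12.87 in the other KO mice, and Try4 7.05 against 11.91 to 12.82. None of the 10 chemokine and receptor genes had a mouse that stood out in this way in either genotype.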

How the results depend on the processing

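The median difference of the 10 genes kept its direction in all 17 alternatives, between 0.66 and 1.03 (log2). Apart from the fit of KO replicate 3 alone, the number called higher at an unadjusted p lay between 6 and 9, and 0 were called lower. The number with no overlap between genotypes was recomputed in 11 of the alternatives. It lay between 6 and 8 in those with more than 1 KO mouse. It was not recomputed for repeated quantile normalization or equal array medians, which also change levels. Shares over all genes at an unadjusted p and with no overlap were computed for the main fit only. These counts under the alternatives therefore have no background. The number called higher after adjustment, 1 with all arrays, was 3 with array weights and 3 without the dimmest 33.3% of genes, where Ccl2 and Ccl7 joined Ccr1. It was 0 with the pancreatic covariate, 0 with KO replicate 3 alone and 0 with the replicate number as a block, where Ccr1 had an adjusted p of 0.0962. Leaving out 1 array at a time gave 0 to 2. All genes called, 128 with all arrays, were 199, 203, 2, 14 and 64 in the same 5 fits in that order, and 25 to 252 without 1 array. The cause was not tested. Without 1 array at a time the difference of Ccl20 lay between -0.0042 and 0.17 and that of Trim58 between -0.1785 and 0.0029, and both turned without KO replicate 3. Trim58 was among the dimmest genes, so that filter gave it no value. Ccl8, Ccl11, Ccl3, Ccl4, Ccl5, Ccl20 and Ccr2 passed in none of the 17 fits, in which their adjusted p lay at or above 0.0733. RMA signals near background compress differences, and no probe-level background was at hand.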
